A study of Mus musculus with 17 samples.

Results

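The granins and the enzymes that process prohormones were followed in the mouse hypothalamus under 2 kinds of diabetes. The set was chosen by gene symbol and had 9 listed genes: the granins Chga, Chgb, Scg2, Scg3 and Scg5, the convertase inhibitor Pcsk1n, the convertase Pcsk2, and the finishing enzymes Cpe and Pam. Of these, 8 genes had a probe set with a single symbol, out of 12393 genes on the array, and these had 9 of its 22626 probe sets, since Cpe had a pair. Pcsk2 is not analysed here. All 9 probe sets passed the filter on dim signals. The rule used no measured value, but the members were chosen with earlier results of these data known.

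RNA was measured on 1 array for each of 17 hypothalami from male C57Bl/6 mice aged 9 weeks. In the STZ group were 6 wild-type mice made diabetic by a single intraperitoneal injection of streptozotocin, which destroys pancreatic beta cells, at 200 µg/g body weight. Another 5 mice had the genotype ob/ob, a germline mutation that leaves them without leptin and leads to obesity and insulin resistance, and no injection is stated for them. The 6 control mice were wild type and received vehicle. The labels give no time between injection and dissection and no glucose or insulin values. They do not state a batch, a date or a pairing, so any p-value reflects only how these 17 samples spread, which may be in part technical.

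Peptide hormones are made as long precursors that are sorted into dense-core granules and cut there. Granins are acidic proteins that help to form these granules and are themselves cut into peptides. Convertases of the Pcsk family cut the precursor at pairs of basic residues, Cpe trims the basic residues left behind, and Pam turns a terminal glycine into the amide that many hypothalamic peptides need for activity. Scg5 is the chaperone that keeps Pcsk2 from aggregating, and Pcsk1n encodes an inhibitor of Pcsk1. Hypothalamic neurons that release oxytocin, vasopressin, orexin or the peptides cut from Pomc depend on this machinery.

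The promoters of Scg2, Chgb and Chga are shown because Scg2 and Chgb had the lowest p-values of the set, and because the 3 windows share a sequence of the cyclic AMP response element type. The windows are the 250 bases before the gene start in RefSeq, build GRCm38.p6, each written 5′ to 3′ on the strand of its gene. They lie at chr1:79440027-79440276 on the minus strand for Scg2, chr2:132781392-132781641 on the plus strand for Chgb and chr12:102554691-102554940 on the plus strand for Chga. Capitals mark the match.
Scg2: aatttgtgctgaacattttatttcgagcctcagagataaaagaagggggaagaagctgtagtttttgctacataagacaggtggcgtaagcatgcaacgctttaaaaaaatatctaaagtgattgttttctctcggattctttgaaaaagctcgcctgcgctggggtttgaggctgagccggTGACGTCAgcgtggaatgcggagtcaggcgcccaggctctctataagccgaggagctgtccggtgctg
Chgb: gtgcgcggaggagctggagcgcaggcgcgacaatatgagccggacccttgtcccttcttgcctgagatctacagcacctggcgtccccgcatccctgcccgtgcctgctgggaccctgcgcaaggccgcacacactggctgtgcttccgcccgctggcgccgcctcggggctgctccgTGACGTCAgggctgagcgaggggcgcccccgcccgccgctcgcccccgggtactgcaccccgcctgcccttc
Chga: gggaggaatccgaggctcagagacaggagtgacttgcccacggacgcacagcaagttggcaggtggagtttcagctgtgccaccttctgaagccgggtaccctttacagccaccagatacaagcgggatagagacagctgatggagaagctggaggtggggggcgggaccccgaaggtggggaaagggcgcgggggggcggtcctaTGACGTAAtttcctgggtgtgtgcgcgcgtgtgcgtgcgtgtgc

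The motif TGACGTCA, which reads the same on both strands, began 68 bases before the start of Scg2 and 72 bases before that of Chgb. Of all 32851 windows of this length in the table, 1.55% held it. Chga held TGACGTAA closer in, 44 bases before its start, and 0.447% of all windows held that sequence or its reverse complement TTACGTCA. Both contain the shorter TGACG, which 17.8% of windows held on either strand. Of the 8 listed genes with a window in the table, Pcsk2 included, 2 held TGACGTCA, 1 held TGACGTAA and 6 held TGACG. Cpe had no entry. The motifs were searched after the expression values had been seen, and a match is a description of the letters, not of a bound site.

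The values are deposited MAS5 signals on a linear scale. Arrays had been scaled to a common level (2% trimmed mean 1500.4 on each), and 13576 probe sets passed the filter and entered the tests. The hypothalamic peptide genes Avp, Oxt and Hcrt had signals of at least 10506, 8024 and 5022 on every array. Of 12 pituitary markers 9 had a probe set and only Pcsk1, which neurons also express, passed the filter; the hormone genes Gh, Prl, Tshb, Lhb, Fshb and Cga did not. A mean level of 14 markers of striatum, cortex and thalamus was 10.68 to 11.01 (log2) on STZ arrays, 10.88 to 11.08 on ob/ob arrays and 10.50 to 10.89 on control arrays. Its group means were 10.845, 10.969 and 10.692 in that order, so it went with the group. A fit with this level as a covariate cannot fully separate it from group, and a call lost there decides nothing. The mean of 7 hypothalamic markers, Pomc and Hcrt among them, was 11.01 to 11.42 on STZ arrays, 10.82 to 11.20 on ob/ob arrays and 11.18 to 11.53 on control arrays.

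No member changed in either model at an adjusted p under 0.05. In STZ against control mice 0 of 9 member probe sets passed, where 0.0516% of all probe sets did (limma, Benjamini-Hochberg over 13576 probe sets). In ob/ob against control mice it was 0 of 9, beside 0.125% of all, and in ob/ob against STZ mice 0 of 9, beside 0.0368%. At an unadjusted p under 0.05 the members numbered 1 in STZ mice, beside 8.24% of all probe sets, 2 in ob/ob mice, beside 11.9%, and 1 between the models, beside 3.93%. All of these were lower, and the lower probe sets made up 4.38%, 6.12% and 2% of all in the 3 comparisons, with 3.87%, 5.75% and 1.93% higher. Below 0 were 5 of the 8 genes in STZ mice, 7 in ob/ob mice and 6 between the models, beside 49.7%, 50.2% and 50.1% of all probe sets. For every member the groups overlapped in all 3 comparisons; they did not overlap for 0.567%, 1.91% and 0.42% of all probe sets. In whole tissue, fewer cells of a type and less RNA per cell cannot be told apart.

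Because a missed threshold does not show that levels were alike, the intervals are given for each gene. For the 5 granins in either model, the 95% intervals of the signal as a share of control ran from 86.1% at the lowest to 111% at the highest. The median log2 fold change of the 8 genes was -0.025 in STZ mice and -0.041 in ob/ob mice, against 0.00060 and -0.00051 over all probe sets tested. Their median size without sign was 0.057 and 0.043, against 0.063 and 0.073 over all probe sets. The 2 comparisons share the 6 control arrays.

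**Figure D1:**
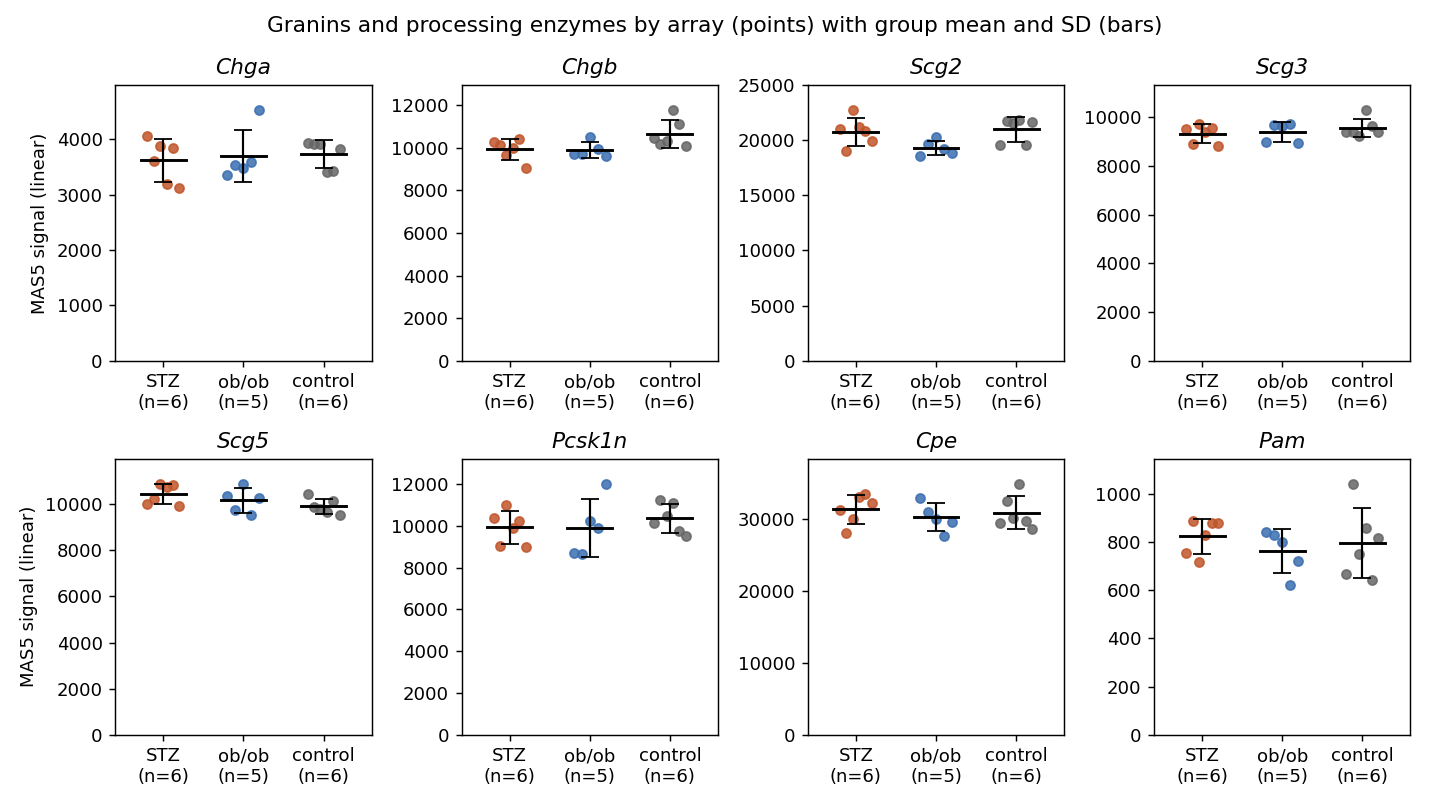
MAS5 signal on a linear axis from 0 for the brightest probe set of each gene, 1 point per array, in STZ (n = 6), ob/ob (n = 5) and control (n = 6) mice; lines are group means and bars are SD. The groups overlap for all 8 genes, with the Chga and Pcsk1n values of ob/ob 5 (4528 and 12030) above the other arrays of their gene.

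Chgb, the second chromogranin and a major soluble protein of dense-core granules, was the one member at an unadjusted p under 0.05 in both models. Its signal was 9060 at the lowest, 10048 at the median and 10382 at the highest on STZ arrays. In ob/ob mice it was 9682, 9699, 10509, 9920 and 9618. Control arrays had 10094 at the lowest, 10375 at the median and 11759 at the highest. All 6 STZ and all 5 ob/ob arrays lay below the control mean, and 3 of the STZ and 4 of the ob/ob arrays lay below the lowest control. The log2 fold change was -0.10 ± 0.044 (SE) in STZ mice, or 93.1% of control with an interval of 87.4% to 99.2% (limma, adjusted p = 0.534). In ob/ob mice it was -0.11 ± 0.046, or 92.9% with an interval of 86.9% to 99.3% (limma, adjusted p = 0.362). Between ob/ob and STZ mice Chgb differed by -0.0030 ± 0.046, an interval of 93.4% to 107% (adjusted p = 0.9996). With the level of the striatum, cortex and thalamus markers as a covariate the values were -0.15 in STZ and -0.19 in ob/ob mice (limma, adjusted p = 0.476 and 0.602).

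Scg2, secretogranin II, the precursor of secretoneurin, stood below the control mean on all 5 ob/ob arrays, without passing the test. The ob/ob arrays had signals of 18569, 19618, 20260, 19176 and 18843. STZ arrays had 18993 at the lowest, 20920 at the median and 22729 at the highest, and control arrays 19532, 21600 and 21836. Thus 3 of the ob/ob arrays were below the lowest control, while the STZ arrays spanned the control range on both sides. The log2 fold change in ob/ob mice was -0.12 ± 0.046, or 92% of control with an interval of 86.1% to 98.4% (limma, adjusted p = 0.298, the lowest of all member tests). In STZ mice it was -0.015 ± 0.044, or 99% with an interval of 92.9% to 105% (adjusted p = 0.951). Set directly against STZ mice, ob/ob mice stood at -0.11 ± 0.046 (limma, adjusted p = 0.9996, unadjusted p = 0.0336). In that comparison quantile normalization gave -0.064 and the marker level of neighbouring regions as a covariate -0.065 (limma, unadjusted p = 0.0835 and 0.184). Against control mice, the same covariate gave Scg2 at -0.030 in ob/ob mice (limma, adjusted p = 0.958), where Chgb was further from 0 than before. The marker level differed between the groups, so these fits cannot fully separate it from group. For the other members this covariate gave values of -0.058 to 0.097 in STZ mice and -0.062 to 0.072 in ob/ob mice, with none passing.

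Scg3, which binds Chga and the cholesterol-rich granule membrane, varied least of the members within groups. Its signal was 8810, 9467 and 9735 at the lowest, median and highest on STZ arrays. In ob/ob mice the signals were 8982, 9676, 9661, 9742 and 8938, and on control arrays 9238, 9408 and 10299 at the lowest, median and highest. The groups overlapped widely, with control 4 the highest array and STZ 6 the lowest. On the log2 scale the fold change was -0.036 ± 0.039 in STZ mice (97.6% of control, interval 92.2% to 103%) and -0.024 ± 0.041 in ob/ob mice (98.3%, interval 92.7% to 104%; limma, adjusted p = 0.855 and 0.869). Without control 4 these were -0.014 in STZ and -0.0027 in ob/ob mice.

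Scg5 stood above control in STZ mice, again without passing. STZ arrays had 9938 at the lowest, 10508 at the median and 10894 at the highest. The ob/ob arrays had 10377, 9766, 10895, 9557 and 10257, and control arrays 9551, 9844 and 10430 at the lowest, median and highest. All 6 STZ arrays lay above the control mean, 3 of them above the highest control, against 3 of 5 and 1 of 5 for ob/ob. The log2 fold change was 0.075 ± 0.039 in STZ mice, or 105% of control with an interval of 99.6% to 111% (limma, adjusted p = 0.634), and 0.036 ± 0.041 in ob/ob mice (102%, interval 96.6% to 109%; adjusted p = 0.783). Without ob/ob 3 the ob/ob value was 0.010, and without ob/ob 4 it was 0.058. Chgb and Scg5, both granule proteins, thus stood on opposite sides of control in STZ mice, though neither value passed.

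Chga, the founding chromogranin and precursor of vasostatin and catestatin, showed no shift beyond its spread. Signals were 3122, 3729 and 4066 at the lowest, median and highest on STZ arrays. In ob/ob mice they were 3355, 3543, 3475, 3586 and 4528, and on control arrays 3416, 3869 and 3937 at the lowest, median and highest. The value of ob/ob 5 stood above all other arrays. On the log2 scale the fold change was -0.050 ± 0.077 in STZ mice (96.6% of control, interval 86.4% to 108%) and -0.022 ± 0.080 in ob/ob mice (98.5%, interval 87.7% to 111%; limma, adjusted p = 0.902 and 0.946). Without ob/ob 5 the ob/ob value was -0.097, and without STZ 6 the STZ value was -0.0089.

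Pcsk1n, the convertase inhibitor, had signals of 9008, 10068 and 11035 at the lowest, median and highest on STZ arrays. The ob/ob arrays had 8706, 8665, 10247, 9919 and 12030, and control arrays 9520, 10334 and 11239. As for Chga, ob/ob 5 was the highest of all 17, while ob/ob 1 and ob/ob 2 were the lowest. The log2 fold change was -0.065 ± 0.072 in STZ mice (95.6% of control, interval 86.1% to 106%) and -0.075 ± 0.076 in ob/ob mice (94.9%, interval 85.1% to 106%; limma, adjusted p = 0.858 and 0.746). Leaving out ob/ob 5 gave -0.15 in ob/ob mice, and leaving out ob/ob 2 gave -0.029.

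Cpe, which removes basic residues from the ends of nearly all neuropeptides, had signals of 28050, 31779 and 33566 at the lowest, median and highest on STZ arrays. In ob/ob mice they were 33031, 31034, 30112, 27690 and 29580, and on control arrays 28705, 30010 and 34962. The groups covered nearly the same range. On the log2 scale the fold change was 0.021 ± 0.054 in STZ mice (101% of control, interval 93.8% to 110%) and -0.031 ± 0.057 in ob/ob mice (97.9%, interval 90.2% to 106%; limma, adjusted p = 0.943 and 0.887). A second, dim Cpe probe set of the cross-hybridizing kind ran from 422 to 971 and gave 0.020 ± 0.17 in STZ mice and 0.16 ± 0.18 in ob/ob mice, with its wide intervals covering 0.

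Pam, the amidating enzyme, was the dimmest gene of the set and the least precisely measured. Its signal was 717, 853 and 888 at the lowest, median and highest on STZ arrays. The ob/ob arrays had 844, 828, 801, 622 and 722, and control arrays 644, 783 and 1043. The log2 fold change was 0.064 ± 0.11 in STZ mice (105% of control, interval 89.1% to 123%) and -0.051 ± 0.12 in ob/ob mice (96.5%, interval 81.6% to 114%; limma, adjusted p = 0.911 and 0.908). Without control 2 these were 0.15 and 0.030, and without control 5 they were 0.0060 and -0.11. Its intervals also cover a shift of the size measured for Chgb.

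**Figure D2:**
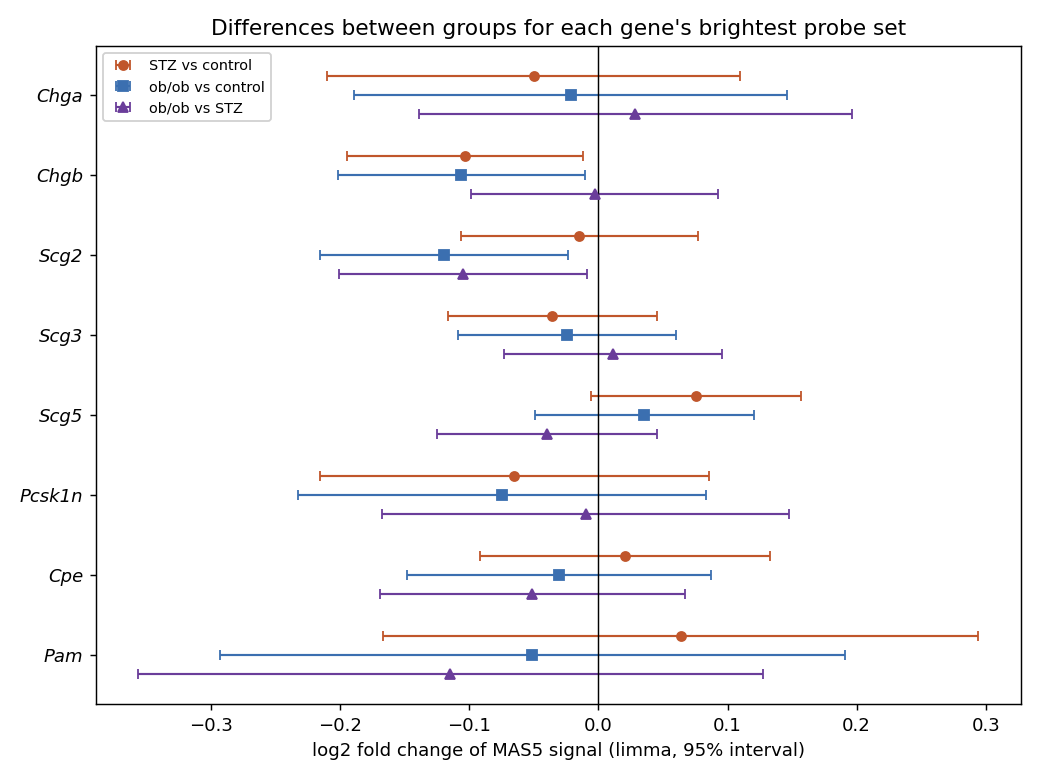
Log2 fold change of MAS5 signal from limma with its 95% interval, for the brightest probe set of 8 genes in 3 comparisons (STZ against control, ob/ob against control, ob/ob against STZ). The unadjusted intervals exclude 0 for Chgb in both models and for Scg2 in ob/ob against control and against STZ, and none of these passed after adjustment.

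The direct comparison of ob/ob with STZ mice asks whether the models differ. Besides Scg2, no member had an unadjusted p under 0.05 in it. Chga stood at 0.029 ± 0.080, Scg3 at 0.011 ± 0.041, Scg5 at -0.040 ± 0.041 and Pcsk1n at -0.0098 ± 0.076, while Cpe and Pam stood at -0.051 ± 0.057 and -0.11 ± 0.12 (limma, every adjusted p = 0.9996). Without ob/ob 4 Scg5 stood at -0.018, Cpe at -0.019 and Pam at -0.043. The widest of these intervals, for Pam, ran from 78.1% to 109% of the STZ signal.

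Most of the granins were measured tightly. The SD of log2 signal within groups was 0.059 for Scg3, 0.060 for Scg5, 0.073 for Chgb and 0.075 for Scg2, against a median of 0.139 over all probe sets tested. Among all probe sets tested these SDs lay at percentiles 3, 3.23, 8.9 and 9.96 in that order. Cpe followed with 0.099 (percentile 25.2), Pcsk1n with 0.138 (49.7), Chga with 0.144 (53) and Pam with 0.197 (75.3). The dim Cpe probe set varied most, with 0.323 (95.3). Chga was thus about as variable as a typical probe set, unlike the other granins. It was also the dimmest granin, with a control mean of 3738 against 9559 for Scg3, the next. The percentiles were not matched for signal, so they cannot be read apart from brightness.

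Members were also compared with each other from mouse to mouse, after the mean of each group had been removed. All 28 pairs of the 8 genes were tested over 17 arrays by two-sided permutation within groups, and none passed after Benjamini-Hochberg adjustment over the pairs, while 4 had an unadjusted p under 0.05. Chgb and Scg3 had r = 0.67 and rho = 0.57 (permutation p = 0.00654 and 0.0191, adjusted p = 0.183 and 0.152). Without the arrays control 4 and ob/ob 3, the farthest from the median of Chgb, r was 0.49, and within groups it was 0.48 in STZ, 0.57 in ob/ob and 0.92 in control mice. Chga and Pcsk1n had r = 0.64 and rho = 0.60 (permutation p = 0.0187 and 0.0217, adjusted p = 0.219 and 0.152), with r = 0.38 without STZ 6 and ob/ob 5. Within control mice their r was 0.017, against 0.67 in STZ and 0.86 in ob/ob mice.

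Scg2 and Scg3 had r = 0.57 and rho = 0.58 (permutation p = 0.0234 and 0.0185, adjusted p = 0.219 and 0.152), and r = 0.59 without control 5 and STZ 2. Cpe and Pam, which act one after the other, had r = 0.55 and rho = 0.61 (permutation p = 0.0365 and 0.0158, adjusted p = 0.256 and 0.152), and r = 0.71 without control 4 and STZ 2. Of the 28 pairs 20 had a positive r, with a median of 0.14. All values of an array share its scaling. When each array's median was subtracted instead, Chgb with Scg3 (r = 0.86, rho = 0.84) and Scg2 with Scg3 (r = 0.81, rho = 0.81) passed. Their adjusted permutation p was 0.00056 and 0.00518 for r, and 0.00112 and 0.00868 for rho. That step itself adds an offset shared by every gene of an array. Array medians ran from 637.6 on control 4, the highest array for Chgb and Scg3, to 707.05 on STZ 6, the lowest for both. The passing values therefore decide nothing about these pairs.

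**Figure D3:**
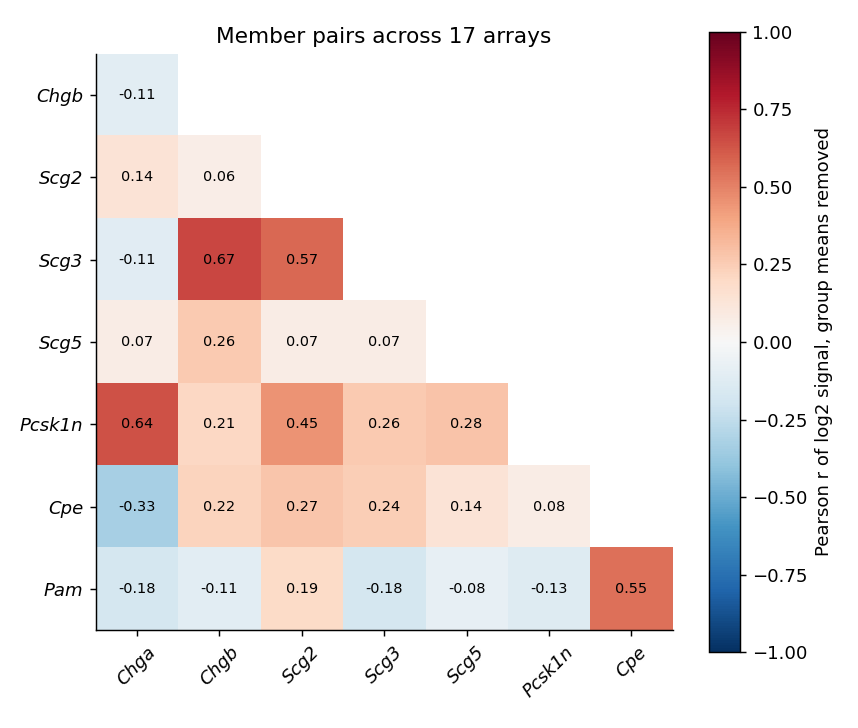
Pearson r of log2 signal with group means removed, for the 28 pairs of 8 genes over 17 arrays; colour runs from -1 (blue) to 1 (red). The highest values are 0.67 for Chgb with Scg3 and 0.64 for Chga with Pcsk1n, and none passed after adjustment.

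Among 7982 other genes, those whose values followed each member most closely over the 17 arrays were named by the highest Pearson r on the same centred scale, as a description that carries no test. They were Rhbdd2 for Chga (0.87), Ints6 for Chgb (0.86), Snap47 for Scg2 (0.91), Vps28 for Scg3 (0.89), Bid for Scg5 (0.82), Atp9a for Pcsk1n (0.93), Ndrg4 for Cpe (0.93) and Parva for Pam (0.93). Next came Rps6kl1 for Chga (0.83), Odr4 for Chgb (0.85), Rps3 for Scg2 (0.85), Tbce for Scg3 (0.88), Supt6 for Scg5 (0.79), Rrp1 for Pcsk1n (0.87), Fth1 for Cpe (0.92) and Magel2 for Pam (0.90). Each was picked as the top of 7982 values, so its size overstates the likeness.

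Other enzymes that cut or trim precursors stayed under the threshold too. Of 25 listed, 19 were tested and none passed in STZ or ob/ob mice (limma). At an unadjusted p under 0.05 there was 1 in each model, beside 8.24% and 11.9% of all probe sets. The median log2 fold change was -0.017 in STZ mice, with a range of -0.096 to 0.24, and -0.037 in ob/ob mice, with a range of -0.17 to 0.15. Furin, the convertase of the constitutive secretory pathway, stood at 0.24 ± 0.097 in STZ mice (adjusted p = 0.521), and Pcyox1, which breaks down prenylated cysteines and was listed with the trimming enzymes, at -0.12 ± 0.048 in ob/ob mice (limma, adjusted p = 0.34). Pcsk1, the convertase that makes the first cuts in Pomc, had a geometric mean signal of 730 in STZ mice, 735 in ob/ob mice and 780 in control mice. Its log2 fold change was -0.095 ± 0.11 in STZ and -0.086 ± 0.12 in ob/ob mice (limma, adjusted p = 0.865 and 0.83).

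Genes of the granule membrane, its traffic and its release were the next list. Of 37 listed, 28 were tested and none passed in either model (limma). At an unadjusted p under 0.05 there were 1 in STZ and 2 in ob/ob mice, all lower. Of all probe sets 4.38% and 6.12% were lower at that p. The medians of the 28 were -0.0081 in STZ and -0.026 in ob/ob mice. Cyb561, the granule cytochrome that supplies reducing power for Pam, stood at -0.10 ± 0.041 in STZ and -0.13 ± 0.043 in ob/ob mice (adjusted p = 0.496 and 0.21). Baiap3, a release factor of dense-core granules, stood at -0.16 ± 0.056 in ob/ob mice (limma, adjusted p = 0.26).

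Peptide precursors are the cargo of these granules, and 1 of them, Pomc, passed, by a call that did not hold under every alternative. Of 35 listed, 21 were tested, and Pomc was lower in both models: its geometric mean signal was 1066 in STZ and 997 in ob/ob mice, against 1678 in control mice. The log2 fold change of Pomc was -0.65 ± 0.12 in STZ and -0.75 ± 0.12 in ob/ob mice (limma, adjusted p = 0.0384 and 0.0121), where 0.00737% and 0.081% of all probe sets were lower at that threshold and 0.0442% were higher in each model. With the marker level of neighbouring regions as a covariate Pomc stood at -0.60 in STZ and -0.66 in ob/ob mice and no longer passed (limma, adjusted p = 0.206 and 0.414). That level differed between the groups, so the lost call decides nothing about Pomc. In STZ mice Pomc passed in 6 of 17 fits that each left out 1 array, with values of -0.72 to -0.59 and an adjusted p of up to 0.112 without STZ 4. The arrays whose absence ended that call were control 1, control 2, control 3, control 4, control 5, STZ 2, STZ 4, STZ 5, STZ 6, ob/ob 1 and ob/ob 3. In ob/ob mice it passed in all 17, with values of -0.85 to -0.68. Signals of the tested Pomc probe set were 891 to 1233 on STZ, 845 to 1325 on ob/ob and 1332 to 2118 on control arrays. A second, dimmer Pomc probe set of the cross-hybridizing kind missed the filter and was not tested. Its signals were 251 to 447 on STZ, 110 to 370 on ob/ob and 626 to 984 on control arrays. The other precursors did not pass. Cartpt stood at -0.35 in STZ and -0.29 in ob/ob mice, and Npy at 0.34 and 0.27. Hcrt stood at -0.50, Gal at -0.29 and Cck at 0.42 in ob/ob mice, against -0.15, -0.060 and 0.20 in STZ mice. At an unadjusted p under 0.05 the list had 2 lower and 1 higher in STZ mice, beside 4.38% and 3.87% of all probe sets. In ob/ob mice it had 7 lower and 2 higher, beside 6.12% and 5.75%. The list was chosen with earlier results of these data known. In ob/ob against STZ mice none passed (limma). There Hcrt at -0.35, Gal at -0.23 and Sst at -0.084 were at an unadjusted p under 0.05, beside 2% of all probe sets lower. The range of the list was -0.65 to 0.34 in STZ and -0.75 to 0.42 in ob/ob mice, where the 8 members ran from -0.10 to 0.075 and from -0.12 to 0.036; the difference in spread was not tested. In the same mice Pcsk1, Cpe and Pam, which process the Pomc product, had the values given above, none of which passed.

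**Figure D4:**
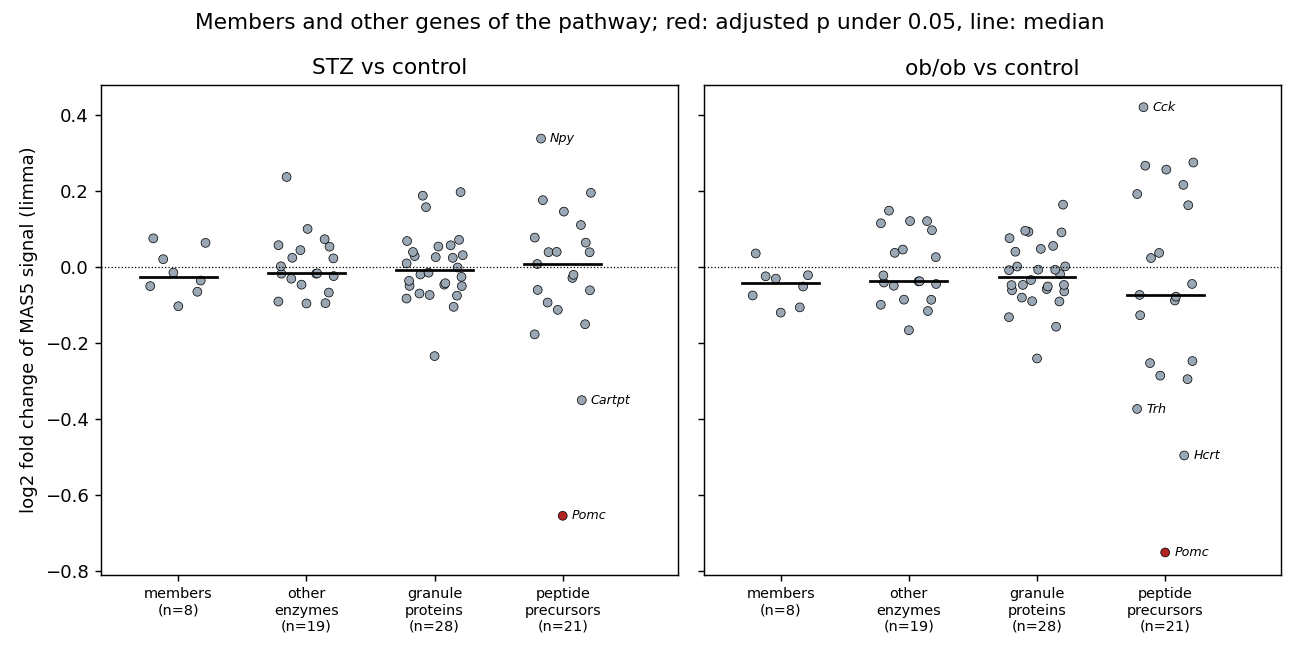
Log2 fold change of MAS5 signal from limma for the 8 members and for 19 other processing enzymes, 28 granule genes and 21 peptide precursors, in STZ against control (left) and ob/ob against control (right); each point is a gene, the line is the list's median, and red marks an adjusted p under 0.05. Pomc (-0.65 and -0.75) is the one red point in each panel, and the members lie close to 0.

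The lists of neurons and of neighbouring regions were read beside these values. The mean level of 10 neuronal markers was 12.79 to 12.86 (log2) on STZ arrays, 12.79 to 12.83 on ob/ob arrays and 12.79 to 12.93 on control arrays. Of these 10, 7 were below 0 in STZ mice (median log2 fold change -0.035) and 8 in ob/ob mice (median -0.056), and none passed (limma). The members had medians of -0.025 and -0.041. At an unadjusted limma p under 0.05 there was 1 in STZ mice, Rbfox3, which was higher (0.18). In ob/ob mice there were 2, Rbfox3 again higher (0.18) and Map2 lower (-0.16). Of all probe sets 8.24% were at that p in STZ mice and 11.9% in ob/ob mice. Of the 14 markers of striatum, cortex and thalamus 12 were above 0 in STZ and 14 in ob/ob mice. Their median log2 fold changes were 0.12 and 0.22, with none passing (limma). An unadjusted p under 0.05 was found for 1 in STZ and 6 in ob/ob mice, all higher, beside 3.87% and 5.75% of all probe sets. Markers of oligodendrocytes averaged 13.05 to 13.27 on STZ arrays, 13.20 to 13.35 on ob/ob arrays and 12.96 to 13.32 on control arrays, with 5 of 7 above 0 in STZ and 6 of 7 in ob/ob mice. One of them, Myrf, a transcription factor of myelination named here after its value was seen, passed in ob/ob mice (log2 fold change 0.46, limma, adjusted p = 0.0305). In STZ mice Myrf stood at 0.41 and did not pass (limma, adjusted p = 0.0792). With the neighbouring-region covariate, which differed between the groups, Myrf stood at 0.43 in ob/ob mice and did not pass (limma, adjusted p = 0.5). Its call in ob/ob mice also ended without control 1, control 5, control 6, ob/ob 1, ob/ob 2 or ob/ob 5.

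Microglial markers averaged 10.91 to 11.11 on STZ, 10.79 to 11.12 on ob/ob and 11.02 to 11.25 on control arrays, with 4 of 6 below 0 in STZ and 6 of 6 in ob/ob mice. Markers of tanycytes and ependyma averaged 10.07 to 10.58 on STZ, 10.28 to 10.59 on ob/ob and 10.03 to 10.30 on control arrays, with 4 of 4 above 0 in STZ and 3 of 4 in ob/ob mice. Endothelial markers averaged 9.57 to 9.75 on STZ, 9.46 to 9.69 on ob/ob and 9.65 to 9.72 on control arrays, with 3 of 5 below 0 in STZ and 4 of 5 in ob/ob mice. Astrocyte markers averaged 12.47 to 12.59 on STZ, 12.50 to 12.53 on ob/ob and 12.48 to 12.57 on control arrays, with 4 of 8 below 0 in STZ and 2 of 8 in ob/ob mice. In these 4 lists no gene passed. The part of these cell types in the members' values was not tested.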

How the data were processed

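The authors deposited 1 MAS5 signal per probe set and array, an intensity on a linear scale (MAS5, per the submitters' processing notes; version and scaling target are not given in the sources used here). Array titles gave each array its group and number. After removal of 64 control probe sets, log2 was taken of each deposited signal, and a minimum at the 40th percentile of mean log2 signal (geometric mean 435) left 13576 probe sets. Symbols came from GEO's platform annotation, in which 20380 probe sets had 1 symbol, 691 several and 1555 none. The brightest stood for its gene, and a probe set of the cross-hybridizing kind did so only where there was no other. limma 3.58.1 in R 4.3.3 (lmFit, eBayes with a trend) fitted the 3 group means together, with Benjamini-Hochberg adjustment over every probe set tested and a threshold of 0.05. Correlations used 100000 permutations within groups. The fit was tested on simulated data. Precision is limited by the number of arrays. Every member was named, as were the 2 most similar genes of each; from the lists of other enzymes, granule genes and precursors, genes past the threshold or at an unadjusted p under 0.05 were named, at most 4 per list and comparison. Cartpt, Npy, Hcrt, Gal and Cck, named in 1 model by this rule, were given in both. Pcsk1, Myrf, Rbfox3, Map2 and the markers that check the tissue were named outside that rule, after their values were seen. Members and lists were chosen with earlier results of these data known. Pairs of all 9 listed genes were planned, and the 28 pairs of the 8 with a probe set were tested. Promoters came from RefSeq tables of GRCm38.p6; no build is named for the probe sets. Alternatives covered the filter, normalization, offset, moderation, array weights, groups in the fit, an exact test, covariates, replicate block and each array left out.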

Additional observations from a re-analysis of the deposited data

Results flagged for a closer look

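Of 27 groups of member values examined (9 probe sets in 3 groups), 1 had an array far from the rest, and chance flags about 5% of groups. Chga in ob/ob 5 had a signal of 4528, where the other 4 ob/ob arrays lay between 3355 and 3586; the gap to the nearest array took 0.778 of the group's range. Pcsk1n was highest on the same array.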

How the results depend on the processing

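Across 741 recalculations of the 24 member values, 0 passed the threshold (lowest adjusted p 0.246, for Scg2 in ob/ob against control without STZ 3), and no member probe set was called under any alternative run, with all 9 tested except at the 60th percentile filter, which left 7. The exact test among them gives no adjusted p, so its 24 values could not pass. The sign turned in 38 of the 741. Many of the 741 recalculations could not turn it. Filters, moderation, a fit of only the compared groups and the exact test leave a fold change as it was. So does leaving out an array of the group not compared. Quantile normalization turned Cpe to 0.017 in ob/ob against control, and Chgb, Pcsk1n and Cpe to 0.013, 3.6e-05 and 0.010 in ob/ob against STZ. Subtracting array medians turned Cpe to -0.012 in STZ. Array weights turned Chga and Pcsk1n to -0.0059 and 0.0019 in ob/ob against STZ. The neighbouring-region covariate turned Scg2 to 0.035 in STZ, Chga and Pam to 0.054 and 0.0089 in ob/ob, and Scg3 to -7.5e-06 in ob/ob against STZ. The pituitary covariate, which is Pcsk1 alone, turned Scg2 to 0.0027 in STZ and Chga to 0.0021 in ob/ob. The mean of both Cpe probe sets turned Cpe to 0.064 in ob/ob and 0.043 in ob/ob against STZ.

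With single arrays left out, values in STZ ran from -0.085 to -0.0089 for Chga, -0.12 to -0.074 for Chgb, -0.041 to 0.011 for Scg2, -0.048 to -0.014 for Scg3, 0.063 to 0.090 for Scg5, -0.096 to -0.038 for Pcsk1n, -0.00049 to 0.056 for Cpe and 0.0060 to 0.15 for Pam. In ob/ob they ran from -0.097 to 0.011, -0.13 to -0.077, -0.14 to -0.11, -0.038 to -0.0027, 0.010 to 0.058, -0.15 to -0.029, -0.062 to 0.0052 and -0.11 to 0.030 for the same genes in that order. In ob/ob against STZ they ran from -0.047 to 0.063, -0.029 to 0.011, -0.13 to -0.079, -0.0050 to 0.029, -0.065 to -0.018, -0.082 to 0.036, -0.083 to -0.019 and -0.15 to -0.043. By the exact two-sided permutation test 5 of 24 values had an unadjusted p under 0.05, against 4 by limma. The added value was Scg5 in STZ mice (exact permutation p = 0.0411). No share of all probe sets under the exact test stands beside this count.

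The count over all probe sets was 7 in STZ (0 to 18 with single arrays left out), 17 in ob/ob (8 to 43) and 5 in ob/ob against STZ (1 to 9). For ob/ob it was 29 with quantile normalization, 11 with array medians subtracted, 38 with array weights and 6 in a fit of only these groups. For ob/ob against STZ it was 1 without a filter, 3 with a filter at the 60th percentile, 10 with array weights and 1 in a fit of only these groups. With the neighbouring-region covariate the counts were 0, 0 and 1. The covariate differed between the groups, so these counts decide nothing about the calls. Under the replicate block the counts were 5, 19 and 1; same-numbered arrays did not deviate together (r from -0.17 to 0.11 in 16 pairs, 1 over 0.1), so the number was not taken as a pairing, and the block changed no member call. Of the pairs of members 0 passed, 2 with array medians subtracted and 0 to 1 with single arrays left out (1 without STZ 3), alternatives chosen after seeing the data, as were those for Pomc and Myrf. Besides the neighbouring-region covariate, the call of Pomc in STZ ended without a filter, without a trend and with the pituitary covariate (adjusted p 0.0569, 0.0634 and 0.0757), and in ob/ob in a fit of only these groups (0.052). That of Myrf in ob/ob ended in 6 of the 12 alternatives that kept all arrays, that covariate among them. The cause was not tested for any of these shifts.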
